A study of Homo sapiens with 16 samples.

Results

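The transcriptome described here is that of HEK293 cells carrying a GFP (green fluorescent protein) control construct, the reference state of a study on the gene RNF43. Its members are the 4 libraries that the labels name as GFP, of 16 libraries in all. The other 12 libraries, 4 each, came from HEK293 cells overexpressing wild-type RNF43 or its frameshift variants R117fs and G659fs. They were used only to check the labels. All groups share the HEK293 background. The sources used here do not say how the constructs were delivered, whether cells were pooled or cloned, or whether the 4 replicates were separate cultures, so the spread given after ± (SD, n = 4 throughout) may be technical. Apart from that check no groups were compared, and no difference was tested.

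HEK293 is an established line obtained from human embryonic kidney cultures transformed with fragments of adenovirus DNA. Its viral early-region proteins bind the retinoblastoma protein and other growth regulators, and its cell of origin has been argued to be an embryonic kidney, adrenal or neuron-like cell. It grows fast, takes up DNA readily and is widely used as a host for cloned receptors, so its own receptors and signalling genes form the background of such work. The GFP transgene and the adenoviral genes were not analysed here.

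RNF43, a membrane E3 ubiquitin ligase that removes Wnt receptors from the cell surface, was at 5.06, 16.4, 9.37 and 24.2 TPM in GFP replicates 1 to 4. TPM (transcripts per 1000000) is a level per transcript length, scaled so that each library sums to 1000000. All 4 values lay far below the 10930.5 to 37807 TPM of the 12 libraries labelled as overexpressing RNF43. The 4 GFP libraries did not repeat the RNF43 level closely: its SD of 8.40 TPM was 61.0% of its mean of 13.8 TPM. Of its 7 transcripts, ENST00000584437 was steady at 161, 160.5, 184 and 170.2 estimated counts. ENST00000577625 went from 57 to 419, 0 and 550 estimated counts, and ENST00000577716 from 75 to 295, 696 and 589. The spread of RNF43 lay in these last transcripts, and its cause was not tested.

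The GFP libraries held 25441077 to 30937321 estimated counts. A count of 0 in a library allows up to 3 counts, or 0.0970 to 0.118 counts per 1000000, which covers counting error only. A gene was called detected at a mean of at least 1 TPM. That held for 14546 of the 35075 genes with a matched transcript in the deposited data (41.5%). It held for 13353 of the 19789 protein-coding genes among them (67.5%), and this second share is the background against which every gene list below is read. Most long non-coding RNA genes could not be measured, as only 30 lincRNA and 15 antisense genes had a matched transcript. A level under 1 TPM means below this limit, not absent. Where ranges of different genes are said to overlap or not, they cover the spread between libraries only. The error of the transcript lengths used is not in them. Protein-coding genes had a median of 7.65 TPM, and the detected ones a median of 21.0 TPM. Levels reached 10 TPM for 9210 coding genes, 100 TPM for 1431 and 1000 TPM for 122. At the other end, 1507 coding genes (7.62%) had 0 counts in all 4 libraries. The libraries repeated well: Spearman's correlation over genes was 0.988 to 0.992 between pairs, as a description, and the median SD over mean was 9.0% for detected genes, 15.9% at 1 to 10 TPM and 5.24% at 100 TPM and above. Replicate 4 stood apart in a few totals, with the highest mitochondrial share and the most coding genes detected, and those values are given where they bear on a result.

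The most abundant mRNAs were those of the translation machinery. Ribosomal protein genes made up 26 of the 30 most abundant genes and 73 of the top 100. The other 4 of the top 30 were EEF1A1, the elongation factor that brings aminoacyl-tRNA to the ribosome, RACK1, a scaffold protein of the small ribosomal subunit, and the mitochondrially encoded cytochrome oxidase subunits MT-CO1 and MT-CO2. Ribosomal protein and elongation factor mRNAs are known for a 5′ terminal oligopyrimidine tract, a C at the cap followed by a run of C and T (U in the RNA), through which mTOR controls their translation. The 30 bases around the annotated start, 15 before it and 15 from it on, are shown for 8 of the most abundant coding genes to make that feature visible. They are read 5′ to 3′ on the gene's strand (RefSeq, GRCh38.p14), with the pyrimidine run that begins at the start base in capitals.
EEF1A1 (chr6:73521018-73521047, minus strand): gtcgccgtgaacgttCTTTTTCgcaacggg
RPS3 (chr11:75399503-75399532, plus strand): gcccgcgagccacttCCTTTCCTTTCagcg
RPL39 (chrX:119791616-119791645, minus strand): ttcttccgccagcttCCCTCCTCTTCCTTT
RPL13 (chr16:89560642-89560671, plus strand): ggccctgctatcatcCCagagtgcattgcg
RPL37A (chr2:216498829-216498858, plus strand): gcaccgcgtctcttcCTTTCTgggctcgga
RPL41 (chr12:56116618-56116647, plus strand): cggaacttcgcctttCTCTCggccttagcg
RPS6 (chr9:19380222-19380251, minus strand): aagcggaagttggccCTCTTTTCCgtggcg
RPS27 (chr1:153990747-153990776, plus strand): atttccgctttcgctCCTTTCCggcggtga
All 8 starts have a C at the start base. In 7 of them the run is at least 5 bases long, from 5 in RPL41 to 19 in RPL39, whose run goes on past the printed window, and in RPL13 it is 2 bases.

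The same feature was counted over all 14862 protein-coding genes with a promoter sequence in the table, as C at the start base followed by at least 4 bases that are each C or T. It was present in 695 of them (4.68%). Among genes at 1000 TPM and above it was present in 50 of 87 (57.5%), at 100 to 1000 TPM in 10.4%, at 10 to 100 TPM in 4.50% and among genes with 0 counts in all libraries in 2.23%. It was present in 44 of the 67 listed ribosomal protein genes with a sequence (65.7%) and in 9 of 25 translation factor genes (36.0%). Of the genes at 1000 TPM and above that are not ribosomal protein genes, 9 of 27 (33.3%) had it. These shares describe letters at annotated starts, and starts used in these cells were not measured.

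EEF1A1 was the most abundant gene, at 10101, 10309.5, 10877 and 9861 TPM. Replicate 3 was highest and replicate 4 lowest, and no other gene reached the range of these 4 values. RPS2, a small-subunit protein, followed at 8819 ± 513 TPM and RPS3, a small-subunit protein with a role at the mRNA entry channel, at 7658 ± 363 TPM. The next genes lay close together: RPL39, RPL13, RPL37A, RPL41 and RPS6 had means of 6483, 6396, 6389, 6125 and 6114 TPM, with ranges over libraries that overlapped, so that their order is not resolved. With the longest transcript taken as the length of each gene, RPL37A fell from 6389 to 882 TPM. RPL13, a large-subunit protein, varied most of them, at 7216, 6482, 6331 and 5555 TPM, with replicate 4 lowest. RACK1 was at 5929 ± 298 TPM.

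Of 52 listed large-subunit genes 51 were detected, with a median of 3143 TPM, and all 33 small-subunit genes, with a median of 3436 TPM, against 7.65 TPM over all coding genes. Tissue-restricted paralogues made up the low end: RPL39L was at 36.2 TPM, RPL3L, the muscle form of RPL3, at 1.5 TPM and RPL10L, a germ-cell form, at 0.0210 TPM (named after their values were seen). The ribosomal protein genes together held 28.5%, 28.0%, 28.6% and 26.6% of TPM in replicates 1 to 4, lowest in replicate 4. All 34 translation factors were detected and held 3.18% ± 0.0498 of TPM. EEF2, which moves the ribosome along the mRNA, was at 3921 ± 315 TPM, EEF1G, a subunit of the exchange factor for EEF1A1, at 3814 ± 120.3 TPM and PABPC1, the cytoplasmic poly(A)-binding protein, at 3006 ± 78.1 TPM. EEF1A2, the form of adult muscle and neurons, was detected at 381 TPM beside its paralogue, a level chosen after its value was seen.

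**Figure D1:**
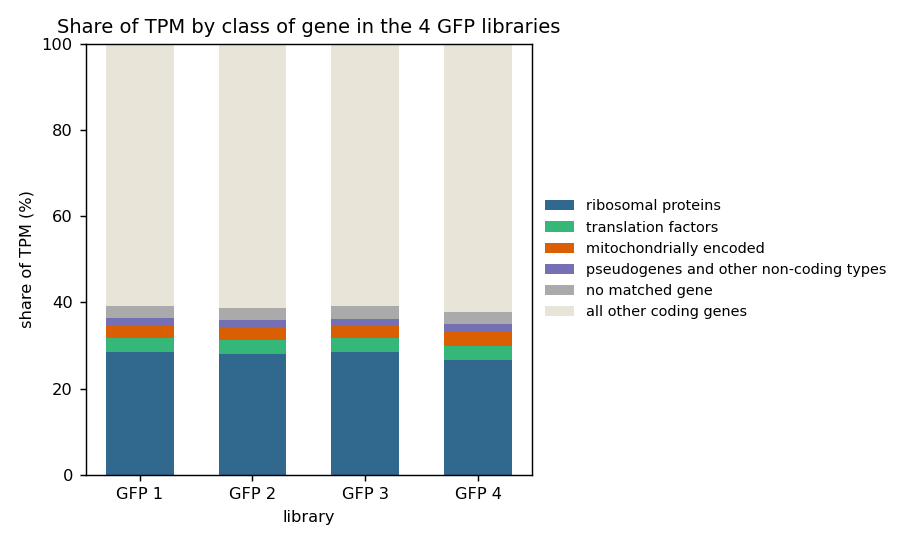
Share of TPM (%) held by classes of genes in each of the 4 GFP libraries, as stacked bars that reach 100%. Ribosomal proteins hold 26.6% to 28.6% and mitochondrially encoded genes 2.69% to 3.27%, highest in replicate 4.

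The 13 mitochondrially encoded mRNAs were all detected, with a median of 2104 TPM. MT-CO2 was at 4005, 4039, 3808 and 4786 TPM. MT-CO1 was at 3800.3, 4007, 3491 and 4802 TPM. Replicate 4 was highest for both of these cytochrome oxidase subunits, and the summed share was 2.79%, 2.74%, 2.69% and 3.27%, with replicate 4 above the others. By counts rather than TPM the share was 1.32% to 1.62%. MT-ND4L and MT-ATP8, listed at 2292 and 2122 TPM, are transcripts of under 300 bases, for which the deposited effective length is small and TPM correspondingly large, and their levels are uncertain.

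The most abundant coding genes beyond these had varied roles. NPM1, a nucleolar chaperone of ribosome assembly, was at 3901 ± 91.6 TPM, TPT1, the translationally controlled tumour protein, at 2995 ± 136 TPM, and HNRNPA1, a splicing regulator, at 2742 ± 110.2 TPM. The polyubiquitin gene UBB was at 2664 ± 72.0 TPM. CKB, the brain-type creatine kinase, was at 1868, 1873, 1696 and 1846 TPM, a level close to the 1873 ± 147 TPM of the glycolytic enzyme GAPDH. ATF4, the transcription factor of the integrated stress response, was at 1209 ± 32.0 TPM. Among 22 actin and tubulin genes 17 were detected (77.3%). ACTG1, gamma-actin, at 2291 ± 107 TPM exceeded ACTB, beta-actin, at 1195 ± 69.6 TPM in all 4 libraries, and TUBA1B was the leading tubulin at 1260.3 ± 51.7 TPM. The muscle actins ACTA1 and ACTC1 were at 2.45 and 0.313 TPM.

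In glycolysis 24 of 30 genes were detected (80.0%), with a median of 30.5 TPM. LDHB, the heart-type lactate dehydrogenase subunit, was at 1199.7, 1228, 1285 and 1201 TPM, and LDHA, the subunit of glycolytic muscle, at 335, 354, 328 and 368 TPM, with no overlap. ENO1 was at 1041 ± 64.8 TPM, ALDOA at 667 ± 61.9 TPM and PKM at 453 ± 35.7 TPM. The liver pyruvate kinase PKLR was at 0.125 TPM. The glucose carrier SLC2A1 was at 16.8 ± 0.557 TPM (PKLR and SLC2A1 were named after their values were seen).

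Lineage was described with 16 marker lists, of which 4 cover the kidney. In a bulk sample fewer cells of a type and less RNA per cell cannot be told apart, so a low marker may mean either. In these lists and all later ones, genes named as under 1 TPM and genes outside the 6 highest of their list were chosen after their values were seen.

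Of 15 genes of the nephron progenitor and early kidney mesenchyme 11 were detected (73.3%, against 67.5% of all coding genes), with a median of 4.42 TPM. SIX2, the factor that maintains self-renewing nephron progenitors, was at 26.9, 27.5, 22.9 and 29.2 TPM. CITED1, a cofactor that marks the same cells, was at 22.5, 25.7, 21.2 and 23.4 TPM. FOXD1, the factor of the renal stroma rather than the nephron, was at 26.3, 23.7, 27.1 and 24.2 TPM. The ranges of these genes overlapped over libraries, so nephron progenitor and stromal factors were both present, in an order that was not resolved. SALL1 was at 22.1 ± 2.73 TPM and the mesenchymal factor TBX18 at 16.4 ± 1.46 TPM. PAX2, WT1 and GDNF, all required for early kidney growth, were lower, at 4.42, 3.05 and 1.58 TPM. The 4 members under the limit included PAX8, a partner of PAX2 in kidney specification, at 0.0880 TPM, OSR1, a factor of the intermediate mesoderm, at 0.129 TPM and LHX1 at 0.398 TPM.

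The other kidney lists had lower shares detected. In the ureteric bud and collecting duct list 7 of 17 genes were detected (41.2%). TFAP2A was at 39.6, 47.4, 33.3 and 42.8 TPM, GATA3, a factor of the nephric duct, at 13.7 ± 2.39 TPM and WNT11, a ligand of ureteric tips, at 10.5 ± 1.57 TPM. RET, the GDNF receptor that drives budding, was at 1.88 ± 0.508 TPM. The water channel AQP2 was at 0.00603 TPM, and FOXI1 had 0 counts. In the mature tubule 4 of 15 were detected (26.7%): GGT1 at 12.2 ± 3.13 TPM, the endocytic receptor LRP2 at 4.93 ± 1.13 TPM, the glucose carrier SLC5A2 at 3.03 ± 0.277 TPM and the water channel AQP1 at 1.60 ± 0.317 TPM. CUBN, the partner of LRP2, was at 0.395 TPM, and the organic anion carriers SLC22A6 and SLC22A8 and uromodulin (UMOD) had 0 counts. In podocytes 3 of 9 were detected, led by PODXL at 11.6 ± 0.896 TPM, while NPHS1, which encodes the slit diaphragm protein nephrin, was at 0.336 TPM.

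The adrenal gland was represented by 3 of 13 cortex genes (23.1%) and 4 of 12 chromaffin and sympathetic genes (33.3%). GATA4, shared with gonad and heart, was at 18.0, 18.5, 16.8 and 19.2 TPM, GATA6 at 7.28 ± 0.609 TPM and INHA at 1.11 ± 0.330 TPM. The master regulator of steroid-making cells, NR5A1, was at 0.821, 0.653, 0.534 and 0.587 TPM, under the limit in every library. The steroid enzymes and carriers HSD3B2, STAR, CYP17A1 and CYP11A1 had means of 0.283 to 0.383 TPM and CYP11B2 had 0 counts. On the chromaffin side GATA2 was at 31.3 ± 4.23 TPM, ISL1 at 5.23 ± 0.428 TPM, PNMT at 1.98 ± 0.520 TPM and HAND2 at 1.59 ± 0.232 TPM. TH, the first enzyme of catecholamine synthesis, was at 0.00983 TPM, DBH at 0.0530 TPM and PHOX2A had 0 counts.

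Neuronal genes had the highest median of the 16 lineage lists, 13.1 TPM. Of 20 genes 14 were detected (70.0%), a share near the 67.5% of all coding genes. STMN1, a microtubule-destabilising protein also tied to proliferation, was at 393, 389, 424 and 400.2 TPM. UCHL1, a neuronal deubiquitinase, was at 299.5, 296, 317 and 296 TPM. Both were close to constant over libraries. TUBB2B, a neuronal tubulin, was at 124 ± 1.60 TPM. The neurofilament subunits NEFM and NEFL were at 67.5 ± 8.72 and 28.0 ± 3.62 TPM, but the heavy subunit NEFH, the hallmark of mature axons, was at 0.334 TPM. ENO2, neuron-specific enolase, was at 43.4 ± 3.84 TPM. The RNA-binding proteins ELAVL3 and ELAVL4 and doublecortin (DCX), which mark differentiating neurons, were at 0.369, 0.0605 and 0.0435 TPM. They were among the 6 members under the limit, and 11 of the 20 genes of the list reached 10 TPM.

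Among neural progenitor genes 7 of 13 were detected (53.8%). MSI1, an RNA-binding protein of neural stem cells, was at 60.9, 65.6, 59.3 and 67.4 TPM and PAX6, the eye and forebrain factor, at 35.5, 36.7, 27.1 and 43.5 TPM. SOX4 was at 27.5 ± 0.711 TPM and SOX2 at 4.91 ± 0.170 TPM. SOX1 and FABP7 were under the limit at 0.0444 and 0.0594 TPM. In glia 3 of 9 were detected, with SLC1A3, a glutamate carrier, at 30.2 ± 5.39 TPM and SOX10, the neural crest glial factor, at 0.232 TPM.

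In mesenchyme 12 of 18 genes were detected (66.7%, median 7.70 TPM) and in epithelium 10 of 17 (58.8%, median 1.91 TPM). Against the 67.5% of all coding genes, the first share was near the background and the second lower. The lists hold only 18 and 17 genes, and neither gap was tested. VIM, the intermediate filament vimentin, was at 673, 576, 578 and 539 TPM, with replicate 1 highest. The paired simple-epithelium keratins KRT18 and KRT8 were at 64.7 ± 4.25 and 61.4 ± 4.78 TPM, within the range of each other. CDH2, N-cadherin, was at 22.4, 24.6, 24.2 and 23.3 TPM, and CDH1, E-cadherin, at 1.91 ± 0.378 TPM, with no overlap. The transition factors TWIST1 and ZEB1 were at 18.8 ± 0.410 and 18.0 ± 1.30 TPM. OCLN, a tight junction protein, was at 28.4 ± 1.77 TPM and EPCAM at 3.71 ± 0.723 TPM. GRHL2, a factor that maintains epithelium, was at 0.0347 TPM. COL1A1 was at 19.8 ± 1.32 TPM, while COL1A2, whose chain joins it in type I collagen, was at 0.0752 TPM. Of 35 intermediate filament genes 15 were detected (42.9%), and KRT1, KRT2, KRT3, KRT4, KRT6A and KRT16, keratins of stratified epithelia, had 0 counts.

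Pluripotency genes were 6 of 11 (54.5%). LIN28B, an RNA-binding protein that blocks let-7, was at 19.7, 22.5, 21.9 and 24.0 TPM and the DNA methyltransferase DNMT3B at 17.7 ± 1.27 TPM. POU5F1, the OCT4 gene, was at 1.54 ± 0.204 TPM. NANOG was at 0.311 TPM and LIN28A, the paralogue of LIN28B, at 0.233 TPM.

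Markers of other cell types were mostly under the limit. None of the 9 endothelial genes reached 1 TPM, their sum was 1.499 to 1.630 TPM in the 4 libraries, and ERG had 0 counts. Of 9 hepatocyte genes ALB alone passed, at 4.14, 1.46, 0.920 and 0.918 TPM, highest in replicate 1. Its estimated counts were 32, 36, 26 and 21, highest in replicate 2. Without replicate 1 the level of ALB was 1.10 TPM. TTR and SERPINA1 had 0 counts. Of 12 blood genes 3 passed, among them the alpha-globin gene HBA1 at 6.20 ± 2.98 TPM and CD14 at 1.76 ± 0.536 TPM, while the pan-leukocyte PTPRC was at 0.157 TPM and CD3D had 0 counts. In muscle 3 of 10 passed, led by the heart factor NKX2-5 at 50.9, 43.5, 41.8 and 39.1 TPM. The myogenic factor MYOD1 was at 2.30 ± 0.215 TPM, and MYF5 had 0 counts.

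**Figure D2:**
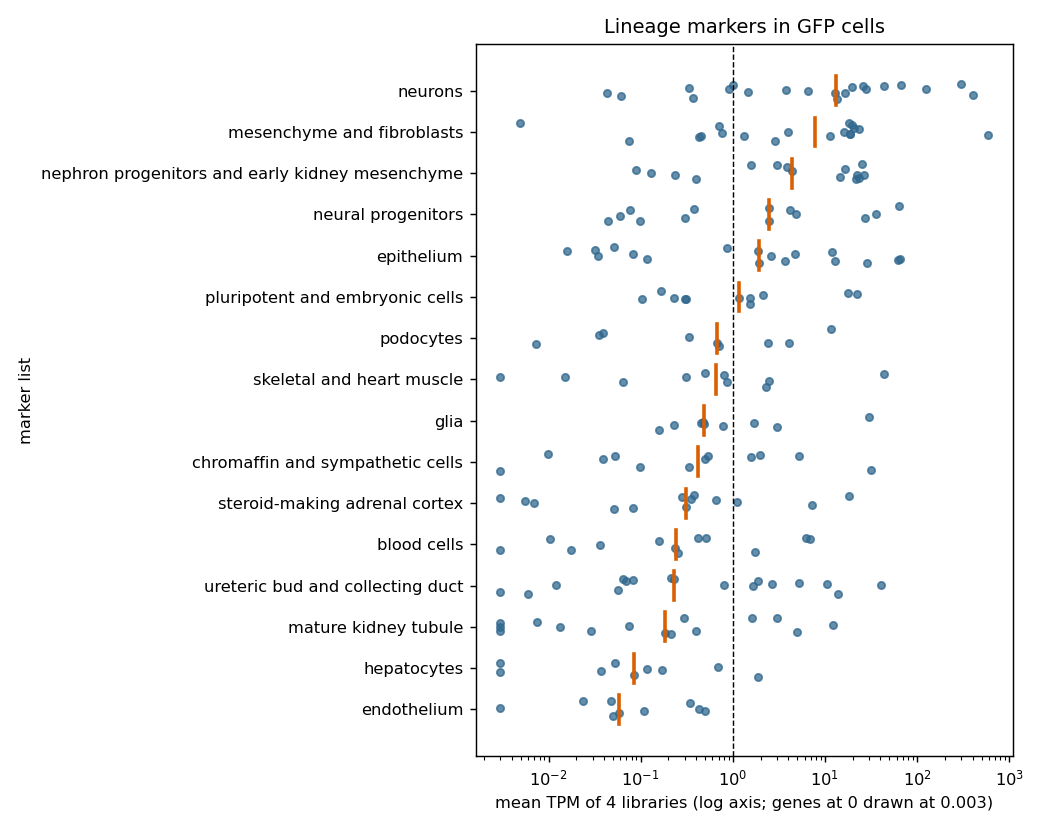
Mean TPM of the 4 GFP libraries (log axis) for each gene of 16 lineage marker lists, 1 point per gene, with the list median as an orange bar and 1 TPM as a dashed line. Neurons have the highest median, 13.1 TPM, and all 9 endothelial points lie left of the dashed line.

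The transcription factors that set position along the body were expressed broadly. HOX genes encode homeodomain factors that lie in 4 clusters, and cells normally use a stretch of each cluster set by their place in the embryo. In the GFP cells 36 of 39 HOX genes were detected (11 of 11 in HOXA, 9 of 10 in HOXB, 8 of 9 in HOXC and 8 of 9 in HOXD). The 3 under the limit were HOXB1 at 0.0141 TPM, HOXC12 at 0.617 TPM and HOXD12 at 0.265 TPM. HOXB9 was at 96.7, 80.5, 94.1 and 80.2 TPM. HOXA9 was at 73.2, 74.4, 72.7 and 67.0 TPM. Every library placed HOXB9 above HOXA9. HOXA10 at 55.7 ± 2.93 TPM and HOXA5 at 51.5 ± 7.98 TPM followed, with ranges that overlapped. Others at over 30 TPM were HOXA3 (35.3 ± 4.21 TPM), HOXB6, HOXB7, HOXC4 (36.0 ± 4.02 TPM), HOXC10, HOXD10 (37.2 ± 3.54 TPM) and HOXD13, a gene of the limb ends and genitals (35.5 ± 2.21 TPM), and no gene of paralogue groups 1, 2, 8, 11 or 12 reached that level. HOXD11, used in the kidney with HOXA11, was at 17.0, 13.3, 17.1 and 11 TPM, and HOXA11 at 16.7 ± 1.69 TPM. Summed over genes, HOXA held 305.7 ± 9.75 TPM, HOXB 233 ± 9.48, HOXC 137 ± 5.93 and HOXD 111 ± 5.87 TPM, and the ranges of the 4 clusters did not overlap.

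**Figure D3:**
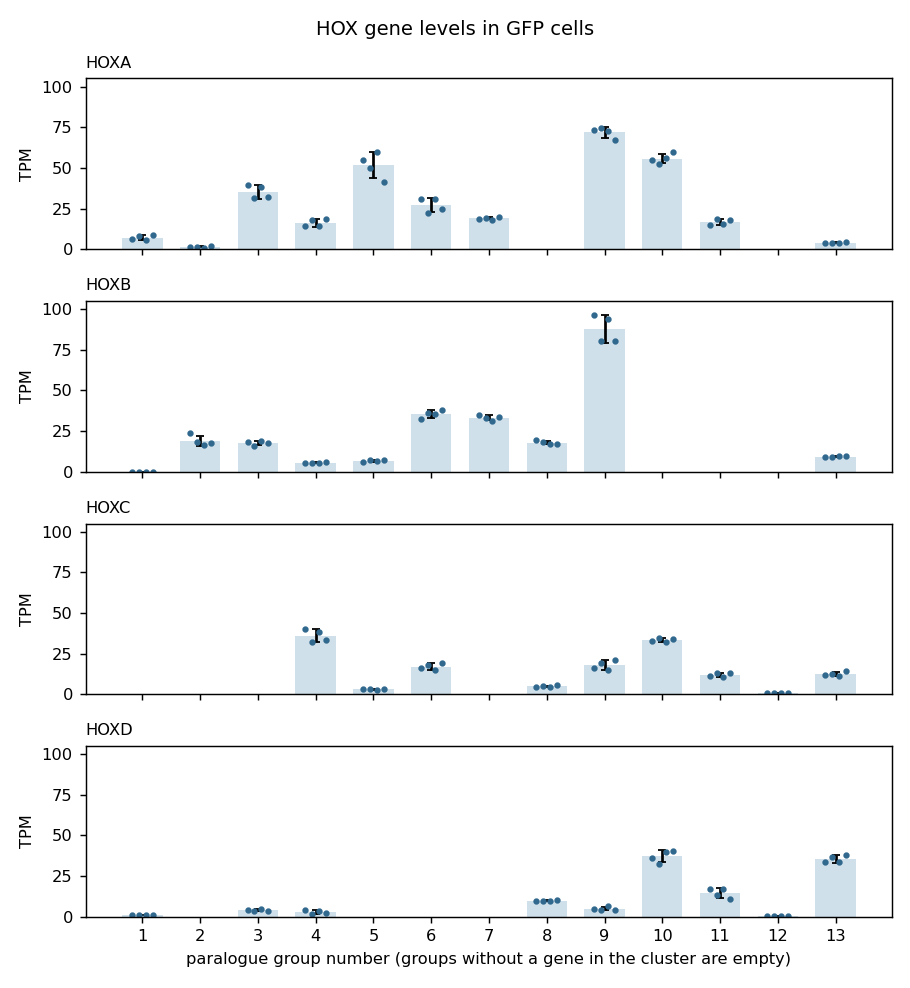
TPM of each HOX gene by cluster (panels) and paralogue group (horizontal axis), with bars at the mean, whiskers of 1 SD and points for the 4 GFP libraries. HOXB9 has the tallest bar at 87.9 TPM, and detected genes run from group 1 to group 13.

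Other factor families were used in part. Of 9 PAX genes 4 were detected: PAX6 as above, PAX3, a neural crest and muscle precursor factor, at 15.9 ± 0.422 TPM, PAX9 at 5.78 ± 0.819 TPM and PAX2. Of 6 GATA genes 5 were detected, and GATA1, the erythroid factor, was at 0.157 TPM. Of 19 SOX genes 13 were detected (68.4%), led by SOX12 at 28.9 ± 0.797 TPM and SOX4. SOX17, the endoderm and endothelial factor, was at 0.00587 TPM and SOX14 had 0 counts.

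Receptors and channels set which signals the cells can read, and the families differed widely in how many members were detected. The shares ran from 15 of 16 Wnt receptors and co-receptors (93.8%) and 13 of 14 TGF-beta superfamily receptors (92.9%) down to 44 of 149 G protein-coupled receptors (29.5%), around the 67.5% of all coding genes.

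**Figure D4:**
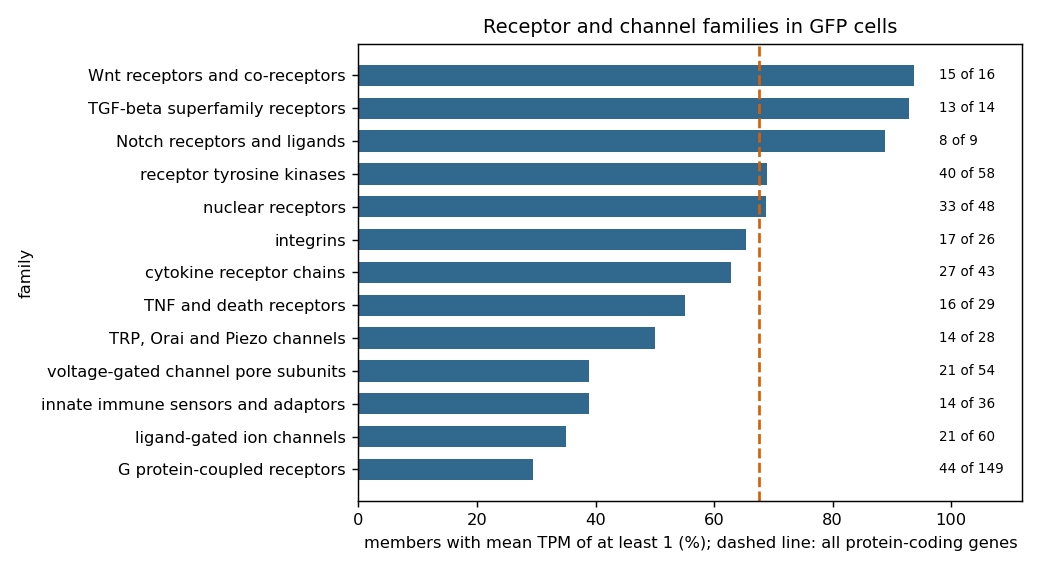
Share of each receptor or channel family with a mean of at least 1 TPM in the GFP libraries (bars, %), with the number of members at the right and the share of all protein-coding genes, 67.5%, as a dashed line. Wnt, TGF-beta and Notch receptors lie right of the line, and G protein-coupled receptors are lowest at 29.5%.

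Receptor tyrosine kinases bind growth factors and pass the signal on by phosphorylation. Of 58 genes 40 were detected (69.0%), a share near the background, with a median of 4.77 TPM. PTK7, a catalytically inactive Wnt co-receptor, was at 64.8, 70.0, 69.2 and 63.5 TPM. EPHB4, a receptor of membrane-bound ephrins, was at 59.7, 57.6, 52.8 and 54.8 TPM. FGFR1 was at 46.9, 48.2, 53.6 and 47.3 TPM. PTK7 lay above the other 2 in every library, whereas EPHB4 and FGFR1 overlapped through replicate 3 of FGFR1. FLT4, a receptor of vascular endothelial growth factors otherwise typical of lymphatic vessels, was at 43.5 ± 1.94 TPM, while its relative KDR was at 0.109 TPM. RYK and TYRO3 had the same mean to 3 digits, 35.9 TPM. All 4 FGF receptors were detected, with FGFR4 at 28.7, FGFR3 at 26.2 and FGFR2 at 11.8 TPM. In the EGF receptor family ERBB2, which has no ligand of its own, was at 29.3 ± 1.82 TPM, ERBB3 at 5.96 TPM, EGFR itself at 3.94 ± 0.321 TPM and ERBB4 just under the limit at 0.987 TPM. MET was at 17.6, IGF1R at 16.1 and INSR at 12.9 TPM. The platelet-derived growth factor receptors PDGFRA and PDGFRB (0.764 and 0.429 TPM), the neurotrophin receptors NTRK2 and NTRK3 (0.522 and 0.438 TPM) and ALK (0.0831 TPM) were under the limit.

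**Figure D5:**
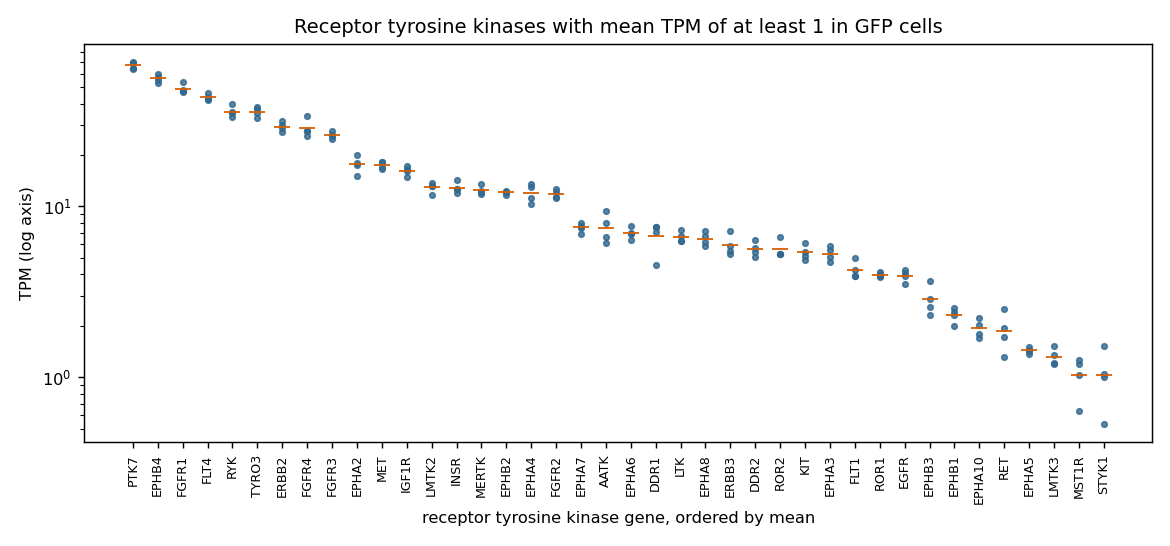
TPM (log axis) of the 40 detected receptor tyrosine kinases in order of their mean, with a point for each of the 4 GFP libraries and an orange bar at the mean. The means run from 66.9 TPM for PTK7 to 1.03 TPM for STYK1, and the points of neighbouring genes overlap along most of the order.

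Wnt ligands bind Frizzled receptors with the co-receptors LRP5 and LRP6 and keep beta-catenin from being degraded. RNF43 and ZNRF3 remove Frizzleds from the surface, and R-spondins acting through LGR receptors remove RNF43 and ZNRF3 in turn. Among Frizzleds FZD6 was at 21.9, 23.8, 26.1 and 21.1 TPM and FZD2 at 17.9, 19.8, 17.2 and 20 TPM, with no overlap, FZD7 was at 9.47 ± 0.809 TPM, and FZD10 alone was under the limit at 0.776 TPM. LRP5 was at 30.8 ± 1.48 TPM. LRP6 was at 10.3 ± 0.404 TPM, or 16.8 TPM if identical copies on sequences without a matched gene are added. Of the ligands 10 of 19 were detected (52.6%), led by WNT11, WNT5A at 8.36 ± 0.337 TPM and WNT5B at 7.41 ± 0.646 TPM. WNT1 and WNT2 were at 0.0359 and 0.00837 TPM. All 26 genes of the Wnt/beta-catenin core were detected, with a median of 18.2 TPM. CTNNB1, beta-catenin, was at 180.0, 177, 173 and 186 TPM and WLS, which carries Wnt ligands to the surface, at 164 ± 4.60 TPM. ZNRF3, the paralogue of RNF43, was at 11.6 ± 0.665 TPM, in the range of RNF43 but with little spread. LGR4 was at 8.73, LGR5 at 1.69 and LGR6 at 1.54 TPM. AXIN2, a feedback target of the pathway, was at 8.49 ± 1.15 TPM.

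Among TGF-beta superfamily receptors TGFBR1, ACVR1B and BMPR1A, 3 type I receptors, were at 24.6 ± 3.18, 24.2 ± 2.42 and 24.2 ± 0.974 TPM and could not be ordered. TGFBR2, the type II partner of TGFBR1, was lower at 4.14 ± 0.185 TPM. Of the 9 Notch receptors and ligands 8 were detected. The ligand JAG2 was at 48.6, 43.0, 44.3 and 48.2 TPM and the receptor NOTCH3 at 32.0 ± 2.63 TPM, while NOTCH4 was at 0.179 TPM. In the Hedgehog pathway 12 of 15 genes were detected (80.0%). The pathway members SMO, KIF7 and SUFU were at 33.9 ± 2.51, 28.6 ± 1.94 and 12.3 ± 0.906 TPM and the target and effector GLI1 at 8.71 ± 0.754 TPM. The 3 ligands SHH, IHH and DHH were at 0.0868 to 0.117 TPM and made up all of the members under the limit.

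Nuclear receptors are transcription factors switched by steroids, retinoids, fatty acids and other small molecules. Of 48 genes 33 were detected (68.8%, near the background). NR2F2 (COUP-TFII) was at 85.6, 75.7, 80.1 and 82.3 TPM, above all others. NR2C1 was at 45.5 ± 4.57 TPM and ESRRA, a regulator of mitochondrial genes, at 41.3 ± 1.11 TPM, with ranges that overlapped. PPARG was at 24.1 and the glucocorticoid receptor NR3C1 at 11.9 ± 1.44 TPM. The sex steroid receptors ESR1 and PGR were at 0.682 and 0.198 TPM, and ESR1 was at 2.09 TPM in replicate 4 against 0.0538 to 0.434 TPM in the others. The ESR1 mean had an SD of 0.949 TPM, larger than itself.

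Of 43 cytokine receptor chains 27 were detected (62.8%). The interferon receptor chain IFNAR1 was at 72.7, 68.3, 63.7 and 67.3 TPM, and IFNGR1 at 41.1 ± 3.67 TPM. Without transcripts under 300 bases the level of IFNAR1 was 48.5 TPM. IL6ST, the shared chain of the interleukin 6 family, was at 21.5 ± 3.13 TPM. IL2RA, IL2RB and IL2RG, the chains of the lymphocyte interleukin 2 receptor, were at 0.208 to 0.339 TPM. Downstream, 12 of 15 JAK/STAT genes were detected, led by TYK2 at 76.7 ± 4.37 TPM and STAT3 at 40.2 ± 1.44 TPM, and STAT5B at 38.1 ± 2.82 TPM stood against its paralogue STAT5A at 0.293 TPM. IFNB1 was at 0.0199 TPM. Of 29 TNF and death receptors 16 were detected (55.2%). TNFRSF10B, a receptor of the death ligand TRAIL, was at 68.8, 65.5, 66.2 and 65.4 TPM, and its relative TNFRSF10A at 0.0479 TPM.

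Innate immune sensors were sparse, with 14 of 36 detected (38.9%). The transcription factor IRF3 was highest at 76.0, 71.3, 65.3 and 83.2 TPM, followed by the adaptor MAVS at 16.6 ± 1.09 TPM and the kinase TBK1 at 14.2 ± 1.95 TPM. The sensors NLRP1 and NOD1 were at 12.4 and 6.54 TPM, on either side of the adaptor TIRAP at 8.29 TPM. TMEM173, which encodes STING, was at 2.09 ± 0.393 TPM, and its activator CGAS at 0.481 TPM. Of the Toll-like receptors TLR5 at 1.65 TPM and TLR6 at 1.10 TPM were above the limit, TLR3 was at 0.164 TPM, and TLR4 had 0 counts. CASP1, the inflammasome protease, also had 0 counts, and NLRP3 was at 0.165 TPM.

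G protein-coupled receptors had a median of 0.307 TPM over 149 genes, the lowest of the receptor and channel families. SMO, the Hedgehog transducer, led at 36.0, 30.3, 35.2 and 34.2 TPM. P2RY11, a receptor of extracellular ATP, was at 22.9 ± 1.60 TPM, LPAR3, of lysophosphatidic acid, at 16.9 ± 0.501 TPM and F2R, the thrombin receptor, at 15.5 ± 0.600 TPM. ADRA2C was at 12.2 ± 1.56 TPM and GABBR1 at 12.7, 7.13, 12.4 and 12 TPM, lowest in replicate 2. The mu opioid receptor OPRM1 was at 0.461 TPM, the dopamine receptor DRD2 at 0.951 TPM and the muscarinic receptor CHRM3 at 2.39 TPM (these 3 were named after their values were seen). Among the 12 receptors with 0 counts were ADRB3, HTR1A, HTR4, ADORA3, AGTR2, SSTR4, CXCR3, CCR8, PTGDR, GLP1R and FFAR3.

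Channels were sparse as well. Of 60 ligand-gated channel subunits 21 were detected (35%), led by CHRNA5, a nicotinic subunit, at 29.7, 36.3, 35.6 and 35.3 TPM and the proton-gated ASIC1 at 28.5 ± 1.59 TPM. Of 54 voltage-gated pore subunits 21 were detected (38.9%). CACNA1H, a T-type calcium channel, was at 11.3 ± 1.62 TPM. The neuronal sodium channels SCN1A, SCN2A and SCN3A were at 0.0568 to 0.361 TPM and SCN10A had 0 counts. Of 28 TRP, Orai and Piezo genes 14 were detected (50%). The mechanosensor PIEZO1 was at 51.1, 35.7, 45.7 and 42.8 TPM. The sensors and pores of store-operated calcium entry were all detected, with STIM1 at 35.2 ± 1.63, STIM2 at 18.3 ± 1.33, ORAI1 at 18.8 ± 1.76, ORAI2 at 20.5 ± 3.68 and ORAI3 at 10.3 ± 0.909 TPM. Of 26 integrins 17 were detected (65.4%), with the shared beta chain ITGB1 at 87.3 ± 5.49 TPM and its fibronectin-binding partner ITGA5 at 27.3 ± 1.04 TPM.

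Growth control genes were nearly all expressed. Of 26 cyclins, kinases and inhibitors 25 were detected (96.2%, median 37.5 TPM). CDKN2A, which encodes the inhibitors p16 and p14ARF, was at 449.6, 374, 373 and 290.2 TPM, highest in replicate 1 and lowest in replicate 4. Its target CDK4 was at 341 ± 16.8 TPM, CCNB1 at 231 ± 20.4 TPM and CDK1 at 149.5 ± 10.5 TPM. The retinoblastoma gene RB1 was at 26.5 ± 1.22 TPM and E2F1 at 67.4 ± 1.76 TPM. The arrest gene CDKN1A was at 92.8 ± 7.6 TPM. In the BCL2 family 15 of 17 were detected. The pro-apoptotic BAX was at 265 ± 4.48 TPM. MCL1 at 60.6 ± 2.10 TPM was the leading survival member and BCL2 itself was at 3.10 ± 0.334 TPM.

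All 14 telomerase and telomere genes were detected. TERT, the reverse transcriptase that most adult tissues switch off, was at 4.88, 4.53, 4.54 and 4.13 TPM, the lowest mean of the list and above the limit in every library. The accessory proteins NHP2 and DKC1 were at 257 ± 17.1 and 133 ± 10.7 TPM.

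Of 12 DNA mismatch repair genes 11 were detected. PCNA, the replication clamp, was at 374 ± 20.6 TPM, and MSH6, which recognises mismatched bases, at 67.4, 71.8, 71.3 and 68.3 TPM.

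The RAS/MAPK core was detected in 17 of 19 members (89.5%, median 43.8 TPM), with MAP2K2 at 184 ± 11.7, MAPK3 at 151 ± 2.21 and GRB2 at 124 ± 7.24 TPM. Among the RAS genes NRAS was at 45.9 and HRAS at 43.8 TPM. The 2 members under the limit, DUSP6 at 0.747 TPM and SPRY4 at 0.128 TPM, are feedback inhibitors that the pathway itself induces. In the PI3K/AKT/mTOR core 24 of 25 were detected. EIF4EBP1, the translation repressor that mTOR inactivates, was at 505, 454, 491 and 421 TPM. AKT2 was at 111 ± 5.43 and AKT1 at 97.3 ± 6.04 TPM. IRS4 was the leading insulin receptor substrate, at 78.8, 60.3, 72.7 and 59.9 TPM against 6.03 TPM for IRS2 and 2.03 TPM for IRS1. The leukocyte kinase PIK3CG was at 0.0488 TPM. All 19 Hippo genes were detected, with AMOT, a binding partner of YAP, at 60.3 ± 4.34 TPM, YAP1 at 26.0 ± 2.65 TPM and its paralogue WWTR1 at 14.2 ± 1.09 TPM.

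Imprinted genes, cancer-testis genes and the TCEAL and BEX family were each detected in part. Of 16 measured imprinted genes 8 were detected: GNAS, the stimulatory G protein subunit, at 1354 ± 49.2 TPM, PLAGL1 at 97.6 ± 4.06 TPM and GRB10 at 41.2 ± 3.96 TPM led, IGF2 was at 7.30 ± 1.30 TPM, and PEG3, NDN and ZIM2 had 0 counts. Of 25 cancer-testis genes, normally kept to germ cells, 6 were detected (24.0%). PRAME was at 43.0, 44.8, 42.6 and 50 TPM, or a mean of 82.5 TPM with identical copies added, and MAGEA2, MAGEA6 and MAGEB2 at 10.1 ± 2.42, 9.33 ± 0.650 and 9.26 ± 0.890 TPM. Of the X-linked TCEAL and BEX family 11 of 14 were detected (78.6%), with BEX3 at 469 ± 16.9 TPM and BEX2 at 144 ± 22.8 TPM, while TCEAL2, TCEAL5 and TCEAL6 were at 0.1, 0.0555 and 0.0190 TPM.

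Over all lists 813 of 1290 distinct genes were detected (63.0%) and 45 had 0 counts in all 4 libraries. For those 45 a count of 0 allows up to 0.0185 to 0.338 TPM, depending on transcript length. Genes with 0 counts also differed from expressed genes in the 250 bases before their annotated start. The median number of CG dinucleotides there was 2 in the 1077 coding genes with 0 counts, 6 in those with counts but under 1 TPM, 18 at 1 to 10 TPM and 22 at 10 to 100 TPM, against 18 over all 14862 genes. The letters TATAAA, the core of the TATA box, were present 45 to 16 bases before the start on the gene's strand in 13.6% of genes with 0 counts (14.9% on either strand). The share was 6.60% under 1 TPM, 0.937% at 10 to 100 TPM and 6.90% at 1000 TPM and above, against 3.51% over all genes (4.03% on either strand). A match describes letters in this window and is not a measured site.

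Genes of pseudogene types held 1.79% of TPM, with 1158 of 14547 detected, and their reads cannot be told from those of the parent genes with certainty. The highest were RPS2P5, a copy of RPS2, at 1614 ± 86.7 TPM and RPS28P7 at 1558 ± 194 TPM. RPS28P7 was at 0 TPM when transcripts under 300 bases were left out. Among genes of any type at 10 TPM and above, 12 of 9418 had an SD of over 50% of the mean. Of the 10 most variable 5 were protein-coding and 5 were processed pseudogenes, such as SNRPEP4 at 29.2, 50.1, 0 and 23.1 TPM. The coding ones included the most variable of all, the histone gene HIST2H2AA3 at 0, 3.38, 23.1 and 32.5 TPM, whose mean of 14.7 TPM was 8.82 TPM without replicate 4. They also included SMIM11B at 2.01, 34.1, 37.1 and 2.61 TPM, and RNF43. Both HIST2H2AA3 and SMIM11B have near-identical copies in the genome. MALAT1, NEAT1, H19, MEG3 and the ribosomal and other small structural RNAs were not analysed here.

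Several levels rest on how reads were shared out. For 304 genes, transcripts without a matched gene had the same length and counts as a matched transcript, as copies of the same sequence would, and 58 of these genes lie on chromosome 6. RPS18 was at 1297 TPM, and its copies held a further 4286 TPM. TUBB, the main beta-tubulin, was at 99.8 TPM with 496 TPM on copies, and RPS9 at 343 TPM with 599.8 TPM on copies, and for these genes the levels above leave the copies out.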

How the data were processed

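RNA sequencing of HEK293 cells was analysed from the deposited transcript tables. Per the labels' protocols, total RNA was column-purified with DNase I treatment and made into NEBNext libraries. Per the submitters' processing notes, kallisto 0.45.1 and GRCh38 were used. The annotation release, strand setting, read length and RNA selection are not given in the sources used here. Per the file headers, the authors deposited for each of 178136 transcripts an estimated count, which need not be whole, and a TPM value. Effective length in the deposited files is length minus 199 above 1000 bases and is the same in every library.

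Transcripts were matched by identifier without version to GENCODE 29. Of all transcripts 162453 (91.2%) matched. The remaining 15683 were left out and held 2.15% to 2.22% of counts. TPM and estimated counts were summed per gene over 35075 genes, averaged over the 4 GFP libraries and given with their SD. Detection was a mean of at least 1 TPM. A chi-square of counts divided by its degrees of freedom was 3.84 to 11.8 between pairs of libraries. It includes the error of estimated counts and does not show whether the cultures were separate. No pair held identical values, and all 4 were kept as the labels give them. Reads common to near-identical genes are divided by estimation, and genes on opposite strands that overlap may be mixed.

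Named with values are the 30 most abundant genes, the 6 highest and the first 3 written members of each list, list members with 0 counts, the 10 most variable genes at 10 TPM and above, the most abundant non-coding types and the genes most moved by the length used. A few genes that this rule names are not reported here. The 59 lists, the members and this rule were chosen with earlier results of these data known. Promoter sequences are from RefSeq on GRCh38.p14 and matched 14862 coding genes by symbol. No groups were tested against each other. Dixon's ratio was used to find libraries apart from the others. Alternatives were other scalings, lengths, thresholds and filters, and each library left out. Summing per gene and the detection count were checked on counts simulated from the GFP means with the same effective lengths. That check leaves out reads shared between near-identical genes and errors of effective length. The analysis used Python 3.11.15, pandas 2.3.3, numpy 2.4.6, scipy 1.17.1 and matplotlib 3.10.9.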

Additional observations from a re-analysis of the deposited data

Results flagged for a closer look

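In a group of 4 libraries a value counts as apart when its gap to the nearest other takes up most of the whole range (above Dixon's critical value), which chance gives in about 1 in 20 groups. That rate does not hold where all other libraries have 0 counts, as any value above 0 then counts as apart. Of 392 named genes 23 had such a value, 12 of them with a mean under 1 TPM, and so did 7 of 59 list sums. For the genes this is near the rate of 1 in 20, so a single gene apart may be chance. Replicate 4 was the library apart in 12 cases, replicate 3 in 8, replicate 2 in 7 and replicate 1 in 5.

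Totals of replicate 4 lay apart, namely its mitochondrially encoded share of 3.27%, against 2.69% to 2.79%, and its 13421 detected coding genes, against 13307 to 13314. The summed TPM of mitochondrially encoded proteins (32715) is that same share in other units, and both entered the 12 cases of replicate 4. Its summed TPM was also apart for nuclear receptors (620.5, against 573 to 578), RAS/MAPK core genes (1149.8, against 1085 to 1094) and Hippo genes (515.7, against 485 to 489). Replicate 3 was low for the sums of epithelial genes (180.2, against 199 to 202) and of telomerase and telomere genes (897.8, against 949 to 956), and replicate 2 for Hedgehog genes (142.7, against 152 to 153).

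Among genes at 1 TPM and above, replicate 1 was high for ALB at 4.14 TPM and WNT3A at 4.19 TPM. It was low for NOTCH3 at 28.1 TPM and CHRNA5 at 29.7 TPM. For ALB this held in TPM only, with 32, 36, 26 and 21 estimated counts in replicates 1 to 4. Replicate 2 was high for PNMT at 2.75 TPM and low for GABBR1 at 7.13 TPM. Replicate 3 was low for NEFL at 22.6 TPM and MLST8 at 96.7 TPM and high for F2R at 16.4 TPM. Replicate 4 was high for HIST1H4C, a histone gene, at 15.4 TPM, and for MTATP6P1, a nuclear copy of mitochondrial sequence, at 1187 TPM.

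Under 1 TPM, PTPRO reached 1.05 TPM, TIE1 0.124 and CDH5 0.0952 in replicate 3. In replicate 2, AQP4 reached 1.06 TPM, KDR 0.164, AFP 0.182 and CD3E 0.0412. In replicate 4, VWF reached 0.156 TPM, TH 0.0393 and SLC34A1 0.0302, while EMCN was below the others at 0.183. CYP3A4 reached 0.136 TPM in replicate 1. CDH5, CD3E, TH and SLC34A1 rest on 5, 2, 1 and 1 estimated counts, with 0 in all other libraries. The chance rate given above therefore does not apply to them. VWF had 1.01, 3.19, 4.23 and 1 estimated counts in replicates 1 to 4, so its high value held in TPM only. AFP had 1, 1, 0 and 0 estimated counts in the same order.

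Transcripts without a matched gene held 2.19% of counts on average (2.15% to 2.22%), a signal outside the genes described.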

How the results depend on the processing

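Detected genes numbered 14443 to 15051 under the other scalings, lengths and centres, 16272 at 0.5 TPM, 13090 at 2 TPM and 13561 with 1 TPM and 10 counts in every library, and leaving out a library gave 14538 to 14604. The share of the 100 most abundant genes, 35.4%, was 36.5% when scaled to matched transcripts, 27.4% with the longest transcript as the length, 36.2% with identical copies added (an alternative chosen after seeing the data) and 16.3% of estimated counts. The median SD over mean, 9.0%, was 7.27% with the longest transcript, 18.2% over all genes with counts and 8.25% to 8.96% when a library was left out. Genes with 0 counts numbered 9671, 7117 without transcripts under 300 bases, 10193 to 10400 with a library left out, and 48354 when transcripts were counted. With the longest transcript as the length, 329 of 396 named levels moved by more than their SD, among them RPL37A (6389 to 882 TPM) and RPS29 (4706 to 164 TPM), and 21 did without transcripts under 300 bases. A mean over 4 cannot move by its SD when 1 library is left out, so a shift of over 1.5 times was counted there. It was seen in 18 of 396 levels, of which 14 were under 1 TPM. The other 4 were ALB (1.86 TPM, 1.10 without replicate 1), AC087632.1 (21.1 TPM, 13.4 without replicate 1), AC116533.1 (115.9 TPM, 62.7 without replicate 3) and HIST2H2AA3 (14.7 TPM, 8.82 without replicate 4). Of the 30 most abundant genes 17 were shared with the longest transcript as the length and 28 to 30 when a library was left out. Counts of detected list members moved by over 1.5 times in 3 of 59 lists at 0.5 TPM, in 5 at 2 TPM, in 1 with the stricter filter and in 1 when scaled without mitochondrial genes. No paired analysis was possible because no groups were compared. Depth limits genes under 1 TPM, where a level can rest on a few counts.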
